A study of Mus musculus with 12 samples.

Results

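Heme is built from glycine and succinyl-CoA by a chain of enzymes that starts and ends in mitochondria and passes through the cytosol in between. The genes described here are 7 enzymes of that chain (Alas1, Alad, Uros, Urod, Cpox, Ppox and Fech) and Slc25a38, the carrier that brings glycine into mitochondria. These 8 genes were listed by symbol from the 24421 gene symbols of the count table, with earlier results of these data known. All 8 were among the 13281 genes that passed the filter on low counts, so no member was left out of the tests.

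The libraries came from KP cells, a line of mouse lung adenocarcinoma labelled with the genotype KrasLSL-G12D/+; Trp53flox/flox, which all groups share. The 4 groups of 3 libraries were sgBACH1 cells (BACH1 knocked out by CRISPR/Cas9) with FEM1B siRNA (siFEM1B), sgBACH1 cells with control siRNA (siCTRL), sgCTRL cells (control guide RNA) with siFEM1B, and sgCTRL cells with siCTRL. The siRNA was applied for 48 h, and the series asks how loss of BACH1 or of FEM1B changes the expression of ferroptosis genes, ferroptosis being cell death that depends on iron. The labels name 1 control and 1 knockout line, so any difference between these lines enters the genotype comparisons, and the p-values measure the spread between the 3 libraries of a group, which the design text calls biological replicates.

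In animal cells, ALAS1 makes 5-aminolevulinate and is the rate-limiting step outside the red cell lineage, where its erythroid relative ALAS2 takes over. ALAD, UROS and UROD work in the cytosol and turn 5-aminolevulinate step by step into coproporphyrinogen. CPOX, PPOX and FECH complete the molecule in mitochondria, and FECH inserts the iron. Heme binds BACH1, a transcriptional repressor, and takes it off the DNA, while FEM1B is the substrate receptor of a CUL2 ubiquitin ligase. In human and mouse cells heme also lowers the amount of ALAS1.

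NRF2 and BACH1 compete for antioxidant response elements, and NRF1, nuclear respiratory factor 1, is a known activator of ALAS1. Sequences before annotated starts of the members are therefore shown. RefSeq promoter windows of GRCm38.p6 were found for 7 of the 8 members, 10 windows in all, and the 250 bases before each start were searched on both strands for TGACNNNGC (the core of the antioxidant response element), GCGCNTGCG (an NRF1 core) and CACGTG (an E-box). In the lines below, capitals mark a match. Slc25a38 holds the response element core 55 bases before its start, Urod an E-box 49 bases before its start, and Cpox none of the 3 motifs. For Alas1 and Uros the NRF1 core is shown with 10 bases on either side, since the rest of these windows lies largely in annotated exons. Both of these sites precede a start that lies inside the gene, so they fall within the gene spans given below. The window before the outer Alas1 start, at 106247954, held none of the motifs.
Slc25a38, chr9:120110132-120110373, plus strand: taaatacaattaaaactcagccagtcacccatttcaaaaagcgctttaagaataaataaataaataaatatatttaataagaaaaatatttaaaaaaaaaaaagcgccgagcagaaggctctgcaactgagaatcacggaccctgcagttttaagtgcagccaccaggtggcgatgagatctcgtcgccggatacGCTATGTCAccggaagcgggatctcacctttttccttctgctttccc
Cpox, chr16:58669958-58670207, plus strand: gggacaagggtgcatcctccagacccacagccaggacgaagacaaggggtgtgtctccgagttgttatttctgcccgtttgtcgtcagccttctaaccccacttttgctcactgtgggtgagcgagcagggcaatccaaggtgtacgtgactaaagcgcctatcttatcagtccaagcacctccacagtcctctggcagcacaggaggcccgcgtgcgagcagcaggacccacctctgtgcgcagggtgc
Urod, chr4:116994414-116994663, minus strand: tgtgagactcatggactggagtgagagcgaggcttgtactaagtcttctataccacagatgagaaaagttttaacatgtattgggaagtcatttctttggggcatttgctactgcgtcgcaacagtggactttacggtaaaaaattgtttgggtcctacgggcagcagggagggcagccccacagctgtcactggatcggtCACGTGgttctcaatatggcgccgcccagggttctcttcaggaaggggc
Alas1, chr9:106247906-106247935, minus strand: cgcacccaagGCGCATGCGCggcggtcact
Uros, chr7:133709324-133709352, minus strand: cggtcacactGCGCCTGCGcgagtcccgc

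In the Alas1 line the capitals hold 2 overlapping matches of the NRF1 core, on opposite strands. The response element core was present in 1 of 7 members (14.3%), against 10.2% of all 32851 promoter windows. The NRF1 core was present in 2 of 7 members, Alas1 and Uros, against 5.19% of all windows. The E-box was present in 3 of 7, Alad, Urod and Uros, against 6.02% of all windows. A member counts here if any of its windows matched, and 3 members have more than 1 window. These matches describe the letters only, not binding.

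The 12 libraries held 16539168 to 22196999 counts each, so 1 count was worth 0.0446 to 0.0603 CPM (the count scaled to the library's TMM-adjusted total). Fem1b reached 46.2, 54.4 and 46.4 CPM in sgBACH1 siFEM1B cells, against 140, 136 and 141 CPM in sgBACH1 siCTRL cells. It reached 43.0, 57.9 and 54.2 CPM in sgCTRL siFEM1B cells, against 157, 167 and 164 CPM in sgCTRL siCTRL cells. Bach1 RNA reached 39.9, 39.3 and 40.5 CPM in sgBACH1 siFEM1B cells and 31.0, 27.6 and 29.7 CPM in sgBACH1 siCTRL cells, against 42.3, 44.0 and 37.7 CPM in sgCTRL siFEM1B cells and 29.5, 33.6 and 31.0 CPM in sgCTRL siCTRL cells. Fem1b RNA was thus low in every siFEM1B library, while Bach1 RNA did not separate the genotypes. Counts over the whole gene do not check an edit that leaves the transcript in place. Bach1 RNA was called higher with siFEM1B, with log2 fold changes of 0.44 in sgBACH1 and 0.40 in sgCTRL cells. Fem1b RNA was called lower in sgBACH1 than in sgCTRL cells with siCTRL (-0.22) and not with siFEM1B (-0.08). Of the 6 epithelial markers, all were tested and their sum was 7080 to 9377 CPM over the libraries. Epcam added little, at means of 1.53 CPM in sgBACH1 siFEM1B, 0.308 in sgBACH1 siCTRL, 0.0361 in sgCTRL siFEM1B and 0.0314 in sgCTRL siCTRL cells. With siCTRL, Krt7 had means of 446 CPM in sgBACH1 against 1733 CPM in sgCTRL cells, and Cdh1 645 against 321 CPM. None of 5 alveolar type 2 markers (Sftpc, Sftpb, Sftpa1, Nkx2-1, Napsa) was detected well enough to be tested, their sum never passing 0.439 CPM. Of 2 endothelial markers 1 was tested and called lower in sgBACH1 cells with either siRNA, and their sum never passed 1.96 CPM. The 3 fibroblast markers summed to 8.58 to 11.2 CPM in sgBACH1 cells against 17.9 to 24.4 CPM in sgCTRL cells, nearly all of it Col1a1. With siCTRL 2 of them, Col1a1 and Col1a2, were called lower in sgBACH1 cells, while Pdgfra was called higher, at a mean of 0.568 CPM in sgBACH1 cells against 0.0800 CPM in sgCTRL cells. Of 4 leukocyte markers Cd68 alone was tested and gave nearly all of the sum, at means of 9.45 CPM in sgBACH1 siFEM1B against 5.57 CPM in sgBACH1 siCTRL cells, and 24.6 CPM in sgCTRL siFEM1B against 8.20 CPM in sgCTRL siCTRL cells. Ptprc and Cd79a stayed under 0.5 CPM and Cd3e had 0 counts in every library. The part of these markers in the results below was not tested.

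All 8 members were expressed in all 12 libraries, at levels that differed several-fold between genes. Per kilobase of the principal transcript, the order in sgCTRL siCTRL cells ran from Urod (29.2 ± 4.35 CPM per kb, SD, n = 3) through Ppox (26.6 ± 2.44), Alad (23.3 ± 1.95), Cpox (14.6 ± 1.36), Alas1 (13.98 ± 0.671), Fech (7.68 ± 0.267) and Slc25a38 (4.35 ± 0.769) to Uros (3.81 ± 0.574). The ranges of Urod and Ppox overlapped, as did those of Ppox and Alad, of Cpox and Alas1, and of Slc25a38 and Uros. In sgBACH1 siCTRL cells Ppox came first at 28.3 ± 2.39 CPM per kb and Slc25a38, at 8.35 ± 0.623 CPM per kb, stood above Fech at 5.82 ± 0.133 CPM per kb. Uros was the lowest of the 8 in each group. The summed level of the 8 genes, to which the more abundant of them contribute most, was 272 to 286 CPM in sgBACH1 siFEM1B, 281 to 288 CPM in sgBACH1 siCTRL, 258 to 270 CPM in sgCTRL siFEM1B and 271 to 290 CPM in sgCTRL siCTRL libraries. The 3 sgCTRL siFEM1B libraries lay below the other 9, and with siCTRL the genotypes overlapped.

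**Figure D1:**
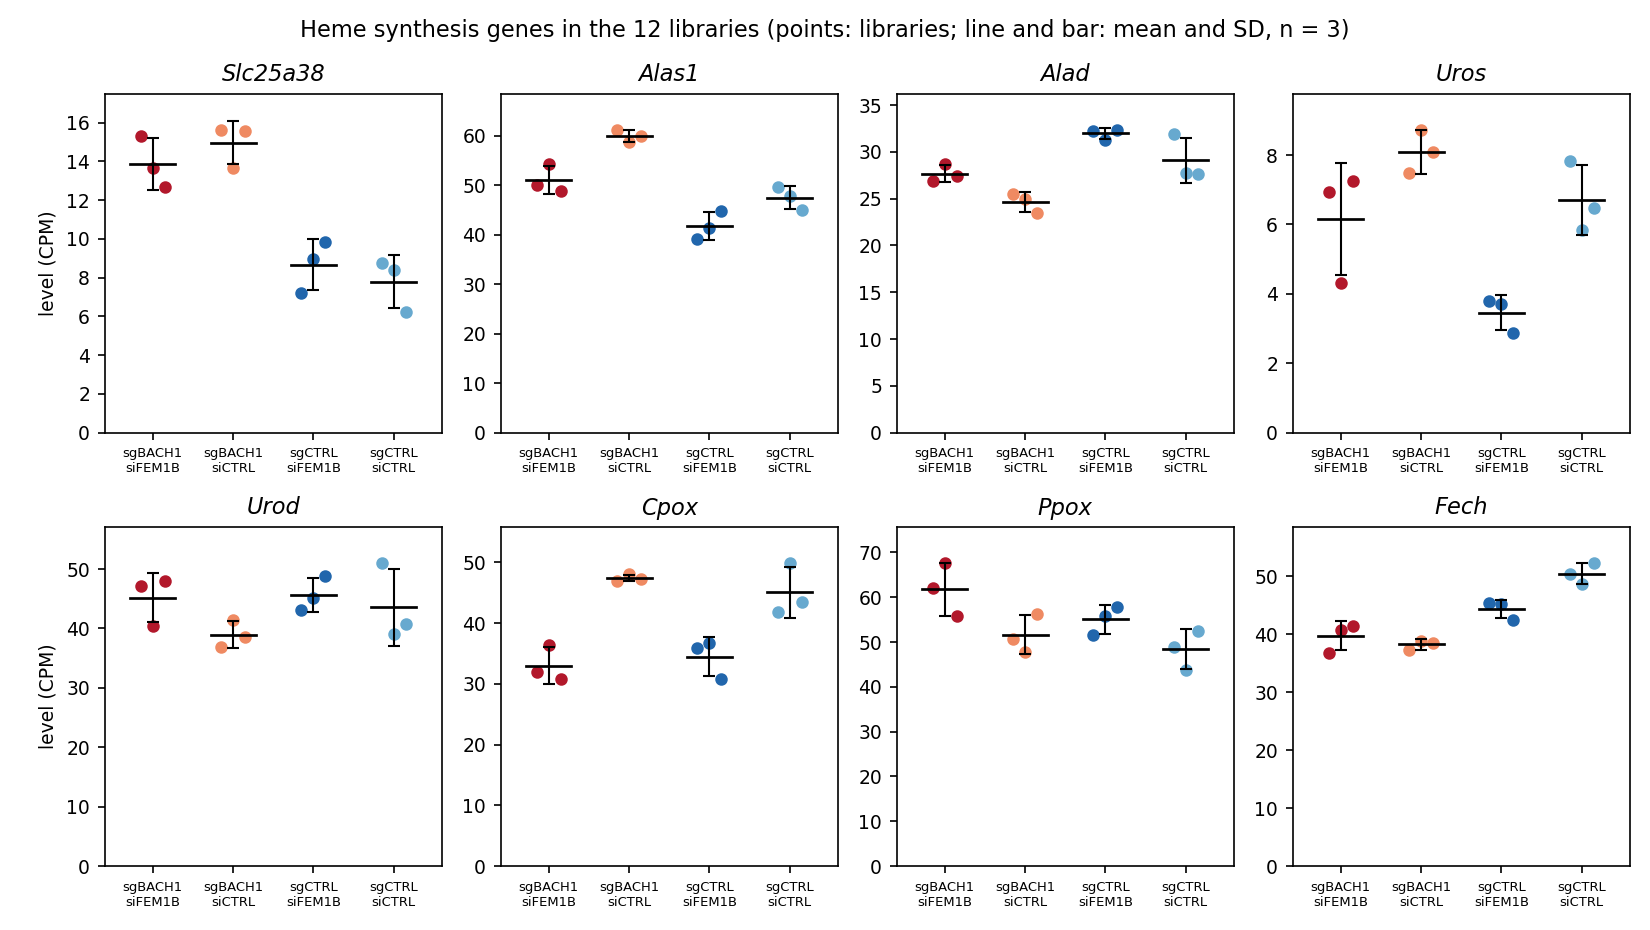
Level of each heme synthesis gene in CPM (vertical axes, from 0) in the 4 groups (horizontal axes). Points are libraries, and the line and bar give the mean and SD of 3 libraries. Over all 12 libraries Slc25a38 and Fech separate the genotypes and Cpox the siRNAs. The share of all tested genes that separate in these ways is not given, so separations here and below describe the members only. Alas1 separates the groups in each of the 4 comparisons but neither genotypes nor siRNAs over all libraries.

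Against sgCTRL cells, sgBACH1 cells carried more RNA for the glycine carrier and for the first enzyme, and less for ALAD and for the iron-inserting enzyme FECH. With siCTRL, Slc25a38 and Alas1 rose, Alad and Fech fell, and Uros, Urod, Cpox and Ppox did not pass the test. Across all genes 24.2% were called higher and 26.3% lower in this comparison, so 2 members higher and 2 lower of 8 is near the background. The median log2 fold change was 0.08 over the members and -0.02 over all genes. With siFEM1B in both genotypes, Slc25a38, Alas1 and Uros rose and Alad and Fech fell, 3 higher and 2 lower of 8, where the background was 28.2% higher and 26.4% lower. There the median log2 fold change was 0.08 over the members and 0.01 over all genes. These are bulk libraries, in which fewer cells expressing a gene and less RNA per cell cannot be told apart. Calls are at an adjusted p under 0.05 in edgeR's quasi-likelihood test, with p adjusted over all 13281 genes, and each ± beside a log2 fold change is its standard error.

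FEM1B siRNA lowered RNA for CPOX, the enzyme that opens the final mitochondrial stretch, in both genotypes. In sgCTRL cells Uros, Cpox, Alas1 and Fech fell with siFEM1B and no member rose, 4 lower of 8, against a background of 22.9% lower and 22.1% higher. In sgBACH1 cells Cpox and Alas1 fell and Ppox rose, 2 lower and 1 higher of 8, against a background of 19.8% lower and 21.9% higher. The median log2 fold change of the members was -0.03 in sgBACH1 cells and -0.06 in sgCTRL cells, beside 0.02 and 0.00 over all genes. Both genotype comparisons share libraries with both siRNA comparisons, so the calls of one are not independent of those of another.

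**Figure D2:**
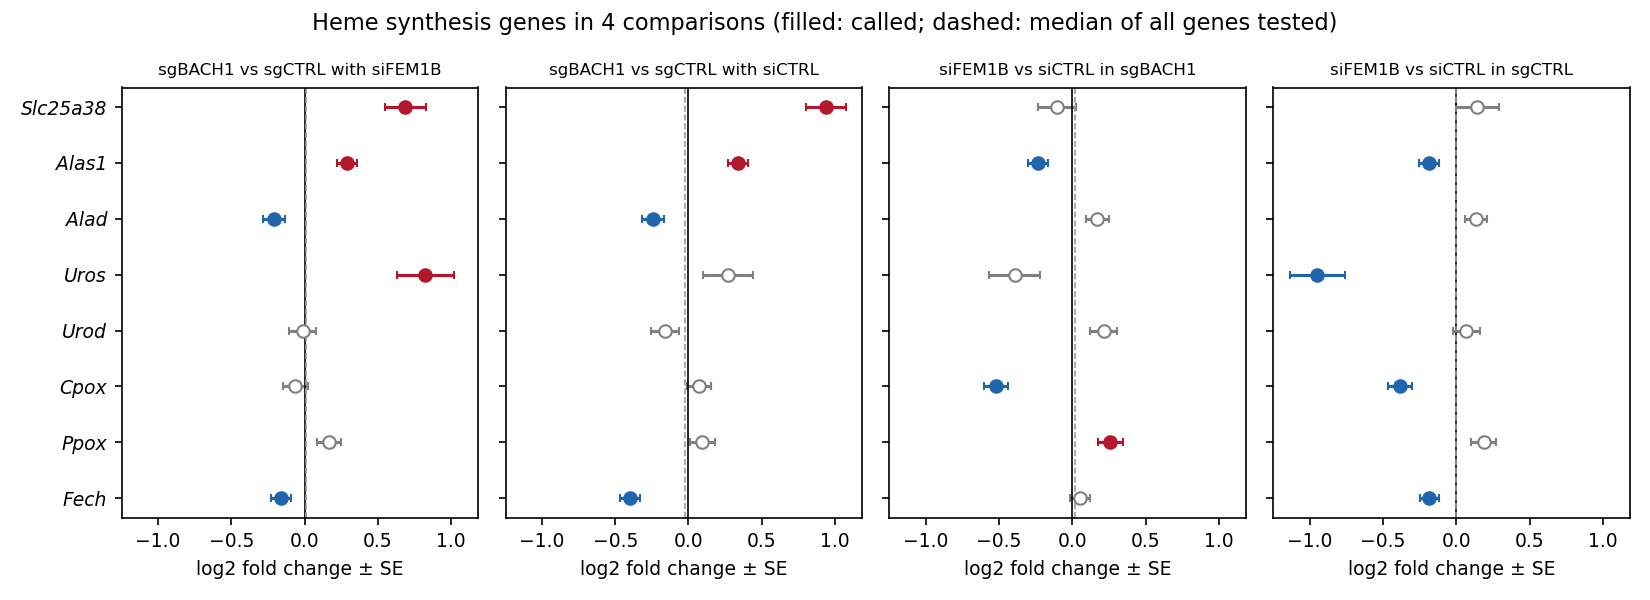
Log2 fold change of each gene (horizontal axes) with its standard error in the 4 comparisons, from the edgeR fit over all 12 libraries. Filled points were called (red higher, blue lower), and the dashed line is the median of all genes tested. Slc25a38 reaches 0.94 with siCTRL, and Uros reaches -0.95 with siFEM1B in sgCTRL cells.

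Slc25a38 (chromosome 9, 120110377 to 120126093, plus strand, GRCm38.p6), the glycine carrier whose window above holds the response element core, gave the largest genotype difference of the 8 genes with siCTRL. It reached 15.3, 13.7 and 12.7 CPM in sgBACH1 siFEM1B libraries and 15.6, 13.7 and 15.6 CPM in sgBACH1 siCTRL libraries. Its level in sgCTRL cells was 7.22, 8.97 and 9.81 CPM with siFEM1B and 8.77, 8.38 and 6.22 CPM with siCTRL. All 6 sgBACH1 libraries therefore lay above all 6 sgCTRL libraries, and the siRNAs overlapped within each genotype. The rise was 1.61-fold with siFEM1B (log2 fold change 0.69 ± 0.14, adjusted p 0.000285) and 1.91-fold with siCTRL (0.94 ± 0.14, adjusted p 1.01e-05). The FEM1B siRNA values were -0.10 ± 0.14 in sgBACH1 cells (adjusted p 0.555) and 0.14 ± 0.14 in sgCTRL cells (adjusted p 0.439).

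Genes around Slc25a38 were also higher in sgBACH1 cells. The 715 tested genes on chromosome 9 had a median log2 fold change of 0.29 with siFEM1B and 0.27 with siCTRL. The 64 tested genes within 5 Mb of Slc25a38 had a median of 0.43 with siFEM1B and 0.41 with siCTRL. When the median of its chromosome was taken out of the fit, Slc25a38 kept a rise of 0.40 (adjusted p 0.0203) with siFEM1B and of 0.67 (adjusted p 0.000501) with siCTRL.

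Alas1 (chromosome 9, 106233455 to 106247954, minus strand), which encodes the rate-limiting enzyme outside the erythroid lineage, was higher in sgBACH1 cells and lower with FEM1B siRNA. It reached 50.0, 54.2 and 48.9 CPM in sgBACH1 siFEM1B libraries and 61.2, 58.7 and 60.1 CPM in sgBACH1 siCTRL libraries. The sgCTRL cells gave 39.2, 41.5 and 44.9 CPM with siFEM1B and 49.6, 47.8 and 45.1 CPM with siCTRL. None of the 4 comparisons showed an overlap between the groups compared, though in sgCTRL cells the closest libraries of the siRNA groups were 44.9 CPM with siFEM1B and 45.1 CPM with siCTRL. In sgBACH1 against sgCTRL cells the log2 fold change of Alas1 was 0.29 ± 0.07 with siFEM1B (adjusted p 0.00138) and 0.34 ± 0.07 with siCTRL (adjusted p 0.000301).

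The rise of Alas1 in sgBACH1 cells was of the size shared by its chromosome. The 126 tested genes within 5 Mb of Alas1 had a median log2 fold change of 0.32 with siFEM1B and 0.30 with siCTRL, next to 0.29 and 0.34 for Alas1 itself. With the chromosome median taken out, Alas1 stood at -0.00117 with siFEM1B (adjusted p 0.990) and at 0.07 with siCTRL (adjusted p 0.454), and neither was called. FEM1B siRNA lowered Alas1 in sgBACH1 cells, with a value of -0.23 ± 0.07 (adjusted p 0.00852), a call that held in every alternative run. The fall in sgCTRL cells was -0.18 ± 0.07 (adjusted p 0.0326). Its call was lost without replicate 1 (adjusted p 0.145) or 2 (0.0783) of sgCTRL siFEM1B and without replicate 1 (0.116) or 2 (0.0773) of sgCTRL siCTRL. The call was also lost in 5 of the other alternatives, DESeq2 (0.0573) among them, with adjusted p up to 0.0661. An antisense gene, 4930500F10Rik, shares 465 of the 3959 exon bases of Alas1 (11.75%), and since the strand setting of the counting is not given in the sources used here, a part of the Alas1 counts could come from it.

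**Figure D3:**
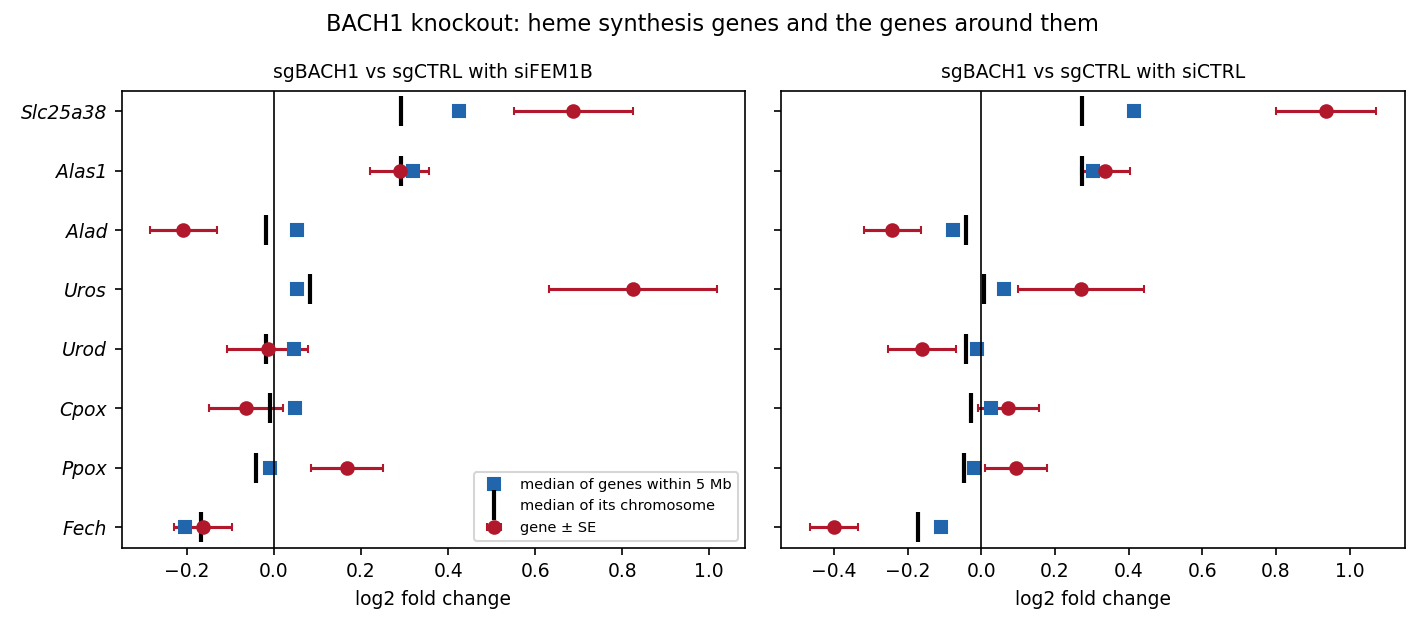
Log2 fold change of sgBACH1 against sgCTRL cells for each heme synthesis gene (red point, with its standard error), for the median of the genes within 5 Mb of it (blue square) and for the median of its chromosome (black bar), with siFEM1B on the left and siCTRL on the right. Distances from the 5 Mb median, with siFEM1B and siCTRL in turn, are -0.03 and 0.03 for Alas1 and 0.26 and 0.52 for Slc25a38. They are -0.26 and -0.17 for Alad, -0.06 and -0.15 for Urod, 0.77 and 0.21 for Uros and 0.04 and -0.29 for Fech. In both panels 26.7% of the genes around Alad lie below it.

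Alad (chromosome 4, 62505984 to 62520063, minus strand), which joins pairs of 5-aminolevulinate molecules into the pyrrole porphobilinogen, was lower in sgBACH1 cells. It reached 26.9, 28.7 and 27.5 CPM in sgBACH1 siFEM1B libraries, against 32.3, 31.3 and 32.4 CPM in sgCTRL siFEM1B libraries. With siCTRL it reached 25.5, 24.99 and 23.5 CPM in sgBACH1 libraries, against 31.9, 27.7 and 27.7 CPM in sgCTRL libraries. Under either siRNA the sgBACH1 libraries lay below the sgCTRL libraries without overlap. The log2 fold change was -0.21 ± 0.08 with siFEM1B (adjusted p 0.0264) and -0.24 ± 0.08 with siCTRL (adjusted p 0.0128). Genes within 5 Mb of Alad had medians of 0.05 with siFEM1B and -0.08 with siCTRL over 30 genes. The call with siFEM1B was lost without replicate 1 (adjusted p 0.0895) or 3 (0.0640) of sgBACH1 siFEM1B or replicate 1 of sgCTRL siFEM1B (0.0614), and that with siCTRL without replicate 3 of sgBACH1 siCTRL (0.0638) or replicate 1 of sgCTRL siCTRL (0.0887). FEM1B siRNA gave Alad values of 0.17 ± 0.08 in sgBACH1 cells (adjusted p 0.0882), where the groups did not overlap, and 0.14 ± 0.08 in sgCTRL cells (adjusted p 0.155). The value in sgCTRL cells was called without replicate 1 of sgCTRL siCTRL (adjusted p 0.0439).

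Uros (chromosome 7, 133686142 to 133710467, minus strand) encodes the enzyme that closes the tetrapyrrole ring in the isomer used for heme, and it had the lowest level and the widest swings of the 8 genes. It reached 6.93, 4.32 and 7.24 CPM in sgBACH1 siFEM1B libraries and 7.47, 8.73 and 8.08 CPM in sgBACH1 siCTRL libraries. In sgCTRL cells it reached 3.79, 3.71 and 2.87 CPM with siFEM1B and 7.82, 5.84 and 6.47 CPM with siCTRL. These levels rest on 53 to 175 counts per library. The 3 sgCTRL siFEM1B libraries lay below the other 9, and replicate 2 of sgBACH1 siFEM1B lay apart from its fellows.

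In sgCTRL cells FEM1B siRNA lowered Uros by 48.2% (log2 fold change -0.95 ± 0.19, adjusted p 0.000381). In sgBACH1 cells the value was -0.39 ± 0.17 (adjusted p 0.0765), without overlap between the siRNA groups. The sgBACH1 against sgCTRL difference was called with siFEM1B (0.82 ± 0.19, adjusted p 0.00122) and not with siCTRL (0.27 ± 0.17, adjusted p 0.198). Whether the siRNA effect differed between genotypes was tested by the interaction, the log2 fold change in sgBACH1 cells minus that in sgCTRL cells, which was 0.55 ± 0.26 with an adjusted p of 0.198. Without replicate 2 of sgBACH1 siFEM1B the interaction was called, at 0.76 (adjusted p 0.0308), and without replicate 3 of that group the fall in sgBACH1 cells was called (adjusted p 0.0443). The neighbouring gene Bccip, which is read from the opposite strand across the start of Uros and shares none of its exon bases, had siFEM1B values of -0.21 in sgBACH1 cells (adjusted p 0.0109) and -0.29 in sgCTRL cells (adjusted p 0.000865).

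Urod (chromosome 4, 116989965 to 116994436, minus strand), which trims the side chains of the ring to give coproporphyrinogen, was not called in any comparison. It reached 47.2, 40.5 and 47.9 CPM in sgBACH1 siFEM1B libraries and 36.8, 41.4 and 38.6 CPM in sgBACH1 siCTRL libraries. Its level in sgCTRL cells was 43.1, 45.1 and 48.8 CPM with siFEM1B and 51.0, 39.0 and 40.7 CPM with siCTRL. The groups overlapped in every comparison, and replicate 1 of sgCTRL siCTRL was the highest library of all 12. The nearest to a call was siFEM1B against siCTRL in sgBACH1 cells, at 0.21 ± 0.09 (adjusted p 0.0739), which was called without replicate 2 of sgBACH1 siFEM1B (adjusted p 0.0210), without replicate 1 of sgCTRL siCTRL (0.0343) and with no filter on low counts (0.0312).

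Cpox (chromosome 16, 58670208 to 58680391, plus strand), the coproporphyrinogen oxidase, was the member that FEM1B siRNA lowered in both genotypes with the clearest separation. It reached 31.9, 36.4 and 30.8 CPM in sgBACH1 siFEM1B libraries, against 47.0, 48.0 and 47.3 CPM in sgBACH1 siCTRL libraries. The sgCTRL cells gave 35.9, 36.8 and 30.8 CPM with siFEM1B, against 41.9, 49.9 and 43.4 CPM with siCTRL. Every siFEM1B library, at 36.8 CPM or less, lay below every siCTRL library, at 41.9 CPM or more, and the genotypes overlapped under siFEM1B and under siCTRL. The fall was 30.3% in sgBACH1 cells (log2 fold change -0.52 ± 0.08, adjusted p 5.96e-05) and 23.3% in sgCTRL cells (-0.38 ± 0.08, adjusted p 0.000940). Both calls held in every alternative run. The interaction was -0.14 with an adjusted p of 0.520. Against sgCTRL cells, sgBACH1 cells gave -0.06 ± 0.09 with siFEM1B (adjusted p 0.549) and 0.07 ± 0.08 with siCTRL (adjusted p 0.479).

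Ppox (chromosome 1, 171276991 to 171281193, minus strand), the protoporphyrinogen oxidase and next step after CPOX, did not follow Cpox. It reached 62.0, 67.6 and 55.8 CPM in sgBACH1 siFEM1B libraries, against 50.6, 47.8 and 56.4 CPM in sgBACH1 siCTRL libraries. In sgCTRL cells it reached 51.5, 55.9 and 57.7 CPM with siFEM1B, against 48.9, 43.7 and 52.5 CPM with siCTRL. The siRNA groups overlapped in both genotypes, by a single pair of libraries in sgBACH1 cells. The rise in sgBACH1 cells was 0.26 ± 0.08 (adjusted p 0.0163), and the value in sgCTRL cells was 0.19 ± 0.08 (adjusted p 0.0764). The call in sgBACH1 cells was lost without replicate 2 of sgBACH1 siFEM1B (adjusted p 0.0834) or replicate 1 (0.0560) or 2 (0.0815) of sgBACH1 siCTRL. The value in sgCTRL cells was called without replicate 1 of sgCTRL siFEM1B (0.0437) or replicate 3 of sgCTRL siCTRL (0.0404), and with DESeq2's size factors in edgeR (0.0494). The ratio of Cpox to Ppox CPM was 0.515, 0.539 and 0.551 in sgBACH1 siFEM1B libraries, against 0.928, 1.004 and 0.839 in sgBACH1 siCTRL libraries. It was 0.697, 0.658 and 0.534 in sgCTRL siFEM1B libraries, against 0.858, 1.14 and 0.826 in sgCTRL siCTRL libraries. In both genotypes this ratio of consecutive enzymes was lower in each siFEM1B library than in any siCTRL library.

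Fech (chromosome 18, 64456542 to 64489098, minus strand), the ferrochelatase that places iron into protoporphyrin, was lowest in sgBACH1 cells. It reached 36.8, 40.8 and 41.5 CPM in sgBACH1 siFEM1B libraries and 37.2, 38.9 and 38.6 CPM in sgBACH1 siCTRL libraries. Its level in sgCTRL cells was 45.4, 45.2 and 42.5 CPM with siFEM1B and 50.5, 48.7 and 52.2 CPM with siCTRL. All 6 sgBACH1 libraries lay below all 6 sgCTRL libraries, and within sgCTRL cells the siFEM1B libraries lay below the siCTRL libraries. With siCTRL the fall in sgBACH1 cells was 24.2% (log2 fold change -0.40 ± 0.07, adjusted p 4.26e-05), and it kept its call with the chromosome median taken out (-0.22, adjusted p 0.0134). The 345 tested genes of chromosome 18 had a median of -0.17 in this comparison.

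With siFEM1B the Fech difference between genotypes was smaller, -0.16 ± 0.07 (adjusted p 0.0462), and rested on each of several libraries. In 9 of the 12 fits that left out 1 library the adjusted p was 0.0505 to 0.229, and the 3 that kept the call left out replicate 2 or 3 of sgBACH1 siFEM1B or replicate 3 of sgCTRL siFEM1B. With the chromosome median taken out the value was 0.00660 (adjusted p 0.942). The call was also lost in 3 further alternatives that did not leave out a library. In sgCTRL cells FEM1B siRNA lowered Fech (log2 fold change -0.19 ± 0.07, adjusted p 0.0262), a call lost without replicate 3 of sgCTRL siFEM1B (0.121), without replicate 1 (0.0531) or 3 (0.102) of sgCTRL siCTRL, and in DESeq2 (0.0516). In sgBACH1 cells the siRNA value was 0.05 ± 0.07 (adjusted p 0.561). The interaction was 0.24 ± 0.09 with an adjusted p of 0.133, so a difference between genotypes in the siRNA effect on Fech was not called.

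The first and final enzymes moved apart with genotype. The ratio of Alas1 to Fech CPM was 1.36, 1.33 and 1.18 in sgBACH1 siFEM1B libraries, against 0.863, 0.918 and 1.06 in sgCTRL siFEM1B libraries. With siCTRL it was 1.64, 1.51 and 1.56 in sgBACH1 libraries, against 0.983, 0.982 and 0.863 in sgCTRL libraries. The ratio was above that of every sgCTRL library in all 6 sgBACH1 libraries. Alas1 lies on a chromosome whose median was raised in sgBACH1 cells and Fech on one whose median was lowered, as given above.

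No member was called in the interaction by edgeR or by DESeq2, and 2 of 8, Uros and Fech, had an unadjusted p under 0.05 in edgeR. Across all genes 3.48% were called higher and 2.6% lower in the interaction, 462 and 345 genes, a split that became 369 higher and 441 lower with DESeq2's size factors in edgeR. The other 6 members had interaction values of -0.25 to 0.15, with adjusted p of 0.471 or more.

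Genes whose profile over the 12 libraries was most like that of a member were found by the root mean square difference of centred log2 CPM. For Uros these were Aldh18a1 (0.140) and Shmt2 (0.155), beside an SD of Uros itself over the libraries of 0.520. For Slc25a38 they were Taf5 (0.121) and Cd24a (0.144), beside an SD of 0.461, and for Cpox Mob1b (0.0682) and Canx (0.0770), beside an SD of 0.259. Alas1 was nearest to Zfp82 (0.0512) and Exoc1 (0.0586), Alad to Ankrd54 (0.0356) and Gnb2 (0.0515), and Ppox to Fam160b2 (0.0800) and Pld2 (0.0848). Fech was nearest to Slc25a46 (0.0488), which lies on the same chromosome, and to Kctd5 (0.0571). Among the members themselves the closest pair was Alad and Urod, at 0.125, farther apart than the nearest gene of 6 of the 7 members searched; Uros was the exception.

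Of the genes that supply the substrates of the first step, both that make glycine from serine were lower with siFEM1B. This list of 8 held these serine hydroxymethyltransferases, subunits of the enzymes that make and use succinyl-CoA, and Slc25a39, a mitochondrial carrier of glutathione, and all 8 were tested. The shares of all genes called, against which the counts of this and the following lists are to be read, were 28.2% higher and 26.4% lower between genotypes with siFEM1B, and 24.2% higher and 26.3% lower with siCTRL. With siFEM1B against siCTRL they were 21.9% higher and 19.8% lower in sgBACH1 cells, and 22.1% higher and 22.9% lower in sgCTRL cells. In sgBACH1 cells 2 fell and 1 rose with siFEM1B, with a median log2 fold change of -0.06 beside 0.02 over all genes, and in sgCTRL cells 4 fell and none rose, with a median of -0.14 beside 0.00. The counts in sgBACH1 cells are near the shares of all genes, and the call of the 1 that rose, Slc25a39 (adjusted p 0.042), was lost in 9 of 19 alternatives. Shmt1, the cytosolic enzyme, reached 16.9, 13.5 and 18.04 CPM in sgBACH1 siFEM1B libraries against 31.4, 29.2 and 34.8 CPM in sgBACH1 siCTRL libraries, and 10.4, 8.78 and 10.6 CPM in sgCTRL siFEM1B libraries against 26.3, 24.0 and 25.9 CPM in sgCTRL siCTRL libraries. The siRNA groups were well apart, with log2 fold changes of -0.98 ± 0.11 in sgBACH1 cells (adjusted p 5.5e-07) and -1.35 ± 0.11 in sgCTRL cells (adjusted p 1.35e-08). Shmt2, the mitochondrial form, fell, with log2 fold changes of -0.35 ± 0.10 in sgBACH1 cells (adjusted p 0.00583) and -0.76 ± 0.10 in sgCTRL cells (adjusted p 3.25e-06). Replicate 2 of sgBACH1 siFEM1B, the lowest of its group for Uros, was also the lowest of its group for Shmt1 and, at 203 CPM against 282 and 288 CPM, for Shmt2. In sgBACH1 against sgCTRL cells 4 rose and 2 fell with siFEM1B, with a median of 0.16, and 2 rose and 3 fell with siCTRL, with a median of -0.06. Dlst, a subunit of the dehydrogenase that makes succinyl-CoA, was among those that fell, with a log2 fold change of -0.40 ± 0.05 with siCTRL (adjusted p 7.64e-07), and with the chromosome median taken out it stood at -0.16 (adjusted p 0.0126). Its call with siFEM1B was then lost (-0.07, adjusted p 0.224).

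Among the genes that carry iron and pathway intermediates across mitochondrial membranes, both mitoferrins were higher in sgBACH1 cells and Fam210b was lower. All 8 of the list were tested. In sgBACH1 against sgCTRL cells 3 rose and 3 fell with siFEM1B, with a median of -0.01, and 2 rose and 4 fell with siCTRL, with a median of -0.18. A split of this kind is not far from the shares of all genes called. The mitoferrins, which import iron for FECH, rose: Slc25a28 by 0.79 ± 0.06 (adjusted p 4.09e-10) and Slc25a37 by 0.58 ± 0.07 (adjusted p 1.24e-06) with siCTRL. With the chromosome medians taken out the rises were 0.36 (adjusted p 3.04e-05) for Slc25a28 and 0.32 (adjusted p 0.000918) for Slc25a37. Fam210b, known in erythroid cells to aid iron import and ferrochelatase, fell, with a log2 fold change of -1.24 ± 0.08 with siCTRL (adjusted p 5.3e-11). It stood at 20.6, 21.6 and 22.6 CPM in sgBACH1 siCTRL libraries, against 53.7, 49.7 and 49.3 CPM in sgCTRL siCTRL libraries. Abcb6, described as a transporter of porphyrins, fell with siCTRL (log2 fold change -0.83 ± 0.09, adjusted p 1.28e-07). With siFEM1B 4 rose and 1 fell in sgBACH1 cells, with a median of 0.23, and 2 rose and 1 fell in sgCTRL cells, with a median of 0.05. Of these 2, the call of Slc25a28 (adjusted p 0.0470) was lost in 14 of 19 alternatives, and the number that rose was 1 to 3 over the alternatives. Abcb6 rose with siFEM1B by 0.91 ± 0.09 in sgBACH1 cells (adjusted p 1.37e-07) and by 0.56 ± 0.08 in sgCTRL cells (adjusted p 1.61e-05).

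Of 10 genes known to act on Alas1 transcription, on the turnover of ALAS1 or as heme sensors, 9 were tested. In sgBACH1 against sgCTRL cells 1 rose and 4 fell with siFEM1B (median -0.17), and 1 rose and 3 fell with siCTRL (median 0.02). With so few genes, these counts lie within 2 genes of the shares of all genes. With siFEM1B 1 rose and 3 fell in each genotype, with medians of -0.09 in sgBACH1 cells and -0.08 in sgCTRL cells. Ppargc1a, the coactivator that induces Alas1 in fasted liver, reached 5.997, 4.69 and 5.04 CPM in sgBACH1 siCTRL libraries, against 10.1, 13.0 and 9.53 CPM in sgCTRL siCTRL libraries (-1.06 ± 0.14, adjusted p 3.38e-06). Its groups did not overlap, and its direction was opposite to that of Alas1. Foxo1, which works with that coactivator in liver, fell with siFEM1B, with log2 fold changes of -0.40 ± 0.07 in sgBACH1 cells (adjusted p 0.000192) and -0.25 ± 0.07 in sgCTRL cells (adjusted p 0.00608). Clpx, which is known to unfold ALAS1 for activation and for degradation, was called higher in sgBACH1 cells with siCTRL (0.16 ± 0.06, adjusted p 0.0379), but it stood at -0.11 with its chromosome median taken out, and its call was lost in 7 of 19 alternatives.

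Downstream of the pathway, 12 of 14 listed genes of heme degradation and transport were tested, and Flvcr1 and Flvcr2 were not analysed here. In sgBACH1 against sgCTRL cells 5 rose and 2 fell with siFEM1B (median 0.27), and 6 rose and 3 fell with siCTRL (median 0.39). More of the list rose than over all genes, but these counts and medians include Pgrmc1 and Hebp1, called higher in both comparisons. Those genes passed the filter on low counts only through the sgBACH1 libraries, so their calls are no support for such an excess. Once genes averaging under 3 in log2 CPM were left out, 3 rose in either comparison. Against siCTRL, siFEM1B went with 3 that rose and 4 that fell in sgBACH1 cells (median -0.07), and with 5 that rose and 3 that fell in sgCTRL cells (median 0.02). The lysosomal heme transporter gene Slc48a1 fell in all 4 comparisons, with a log2 fold change of -0.47 ± 0.05 in sgBACH1 against sgCTRL cells with siCTRL (adjusted p 3.66e-07). Pgrmc1, whose product binds heme and has been found with ferrochelatase, had 136 to 183 counts in each sgBACH1 library and 0 in all 6 sgCTRL libraries, and Hebp1, a heme-binding protein gene, had 59 to 87 counts in each sgBACH1 library and 0 to 4 in each sgCTRL library. Of 14 genes that use heme or mature cytochromes, 13 were tested, of which 3 rose and 6 fell with siFEM1B (median -0.10) and 4 rose and 5 fell with siCTRL (median -0.15) in sgBACH1 against sgCTRL cells. With the chromosome medians taken out the siCTRL count became 1 higher and 4 lower. Without that step the share of the 13 that rose was near that of all genes in both comparisons, and the share that fell was higher. With siFEM1B 2 rose and 3 fell in sgBACH1 cells (median 0.05), and 2 rose and 5 fell in sgCTRL cells (median -0.07). Hccs, which attaches heme to cytochrome c, fell with siFEM1B, with log2 fold changes of -0.73 ± 0.07 in sgBACH1 cells (adjusted p 2.44e-07) and -0.57 ± 0.07 in sgCTRL cells (adjusted p 2.48e-06).

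**Figure D4:**
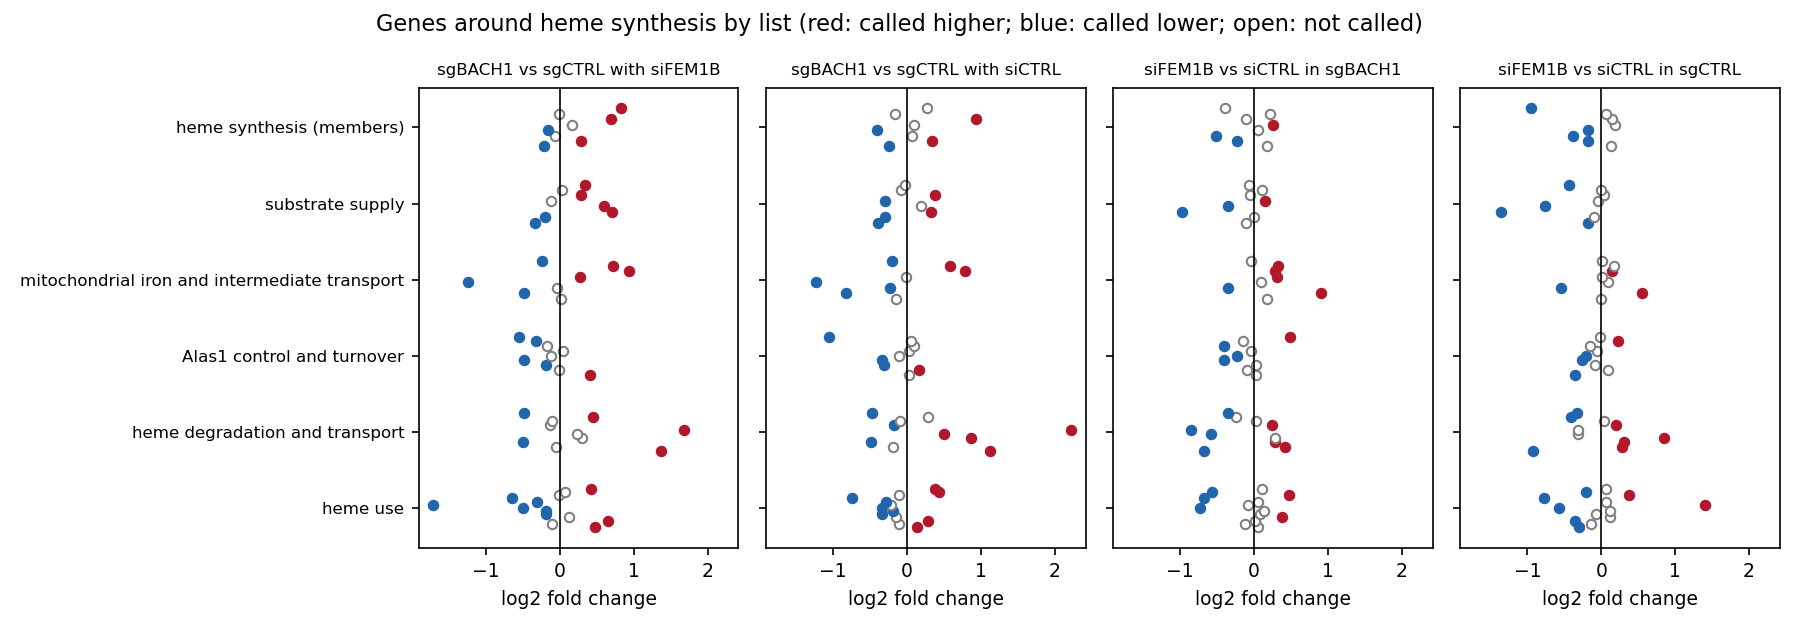
Log2 fold change (horizontal axes) of the heme synthesis genes and of 5 lists of genes around them, 1 point per gene, in the 4 comparisons. Red points were called higher, blue points lower and open points not called; Pgrmc1 and Hebp1, near 0 counts in sgCTRL cells, are left out. Called genes of both colours occur in each row and comparison except with siFEM1B in sgCTRL cells, where the 4 called heme synthesis genes and the 4 called substrate supply genes were all lower.

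The erythroid form of the pathway's first enzyme had a low level in all libraries. Its gene, Alas2, reached 0.242 to 1.06 CPM over the 12 libraries, against 39.2 to 61.2 CPM for Alas1. Of 8 erythroid markers 4 were tested, and Hbb-bs had 1 count in 1 library. Their sum was 25.3 to 26.7 CPM in sgBACH1 siFEM1B, 16.5 to 19.04 CPM in sgBACH1 siCTRL, 13.5 to 17.8 CPM in sgCTRL siFEM1B and 7.27 to 7.68 CPM in sgCTRL siCTRL libraries, and in the sgBACH1 groups most of it came from Epor, the erythropoietin receptor gene. Epor reached 20.4, 20.6 and 19.7 CPM in sgBACH1 siFEM1B libraries and 16.5, 17.0 and 14.7 CPM in sgBACH1 siCTRL libraries, against 7.94, 7.41 and 8.89 CPM in sgCTRL siFEM1B and 5.59, 5.08 and 5.87 CPM in sgCTRL siCTRL libraries. The alpha-globin gene Hba-a1 had 62, 77 and 63 counts in sgBACH1 siFEM1B libraries against 8, 7 and 6 in sgBACH1 siCTRL libraries, and 94, 76 and 123 counts in sgCTRL siFEM1B libraries against 0, 10 and 6 in sgCTRL siCTRL libraries. It was called higher with siFEM1B in sgBACH1 cells (log2 fold change 3.37 ± 0.42, adjusted p 2.96e-06) and in sgCTRL cells (4.22 ± 0.42, adjusted p 1.58e-07). Hba-a1 passed the filter on low counts only through the siFEM1B libraries, so these calls add no support beyond the counts themselves. Its counts are identical to those of its copy Hba-a2 in every library, so the reads of the copies cannot be told apart, and the sum above holds them once. The part of this list in the changes of the members was not tested.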

How the data were processed

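Stranded mRNA libraries were prepared from 12 cultures, per the labels' protocols. The authors deposited raw counts, whole numbers for each symbol. Subread, featureCounts 1.6.4, SAMtools 1.9, DESeq2 1.26.0 and mm10 are named in the submitters' processing notes. For annotation and strandedness of the counting step, which matter where genes overlap, a setting is not given in the sources used here. Genes were kept with filterByExpr (minimum count 10), scaled by TMM factors (0.989 to 1.01) and tested by the two-sided quasi-likelihood test of edgeR 4.0.16 (R 4.3.3) in 1 model with a mean per group (8 residual degrees of freedom), with Benjamini-Hochberg adjustment over 13281 genes. Standard errors are the size of the log2 fold change over the square root of F. The script was tested on simulated data. Replicates were never identical, and their counts differed by more than sampling noise (chi-square per degree of freedom 2.54 to 14.1).

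Alternatives were size factors, DESeq2 1.42.0, other filters, a replicate block, the compared groups alone, chromosome medians as offsets and each library left out. The 5 Mb medians are a description chosen after the data were seen. Promoter windows and gene positions are from RefSeq, GRCm38.p6, and transcript lengths from GENCODE. Named besides the members were the targeted genes, up to 4 genes per list and comparison with the smallest p, the 2 genes nearest to each called member over the 12 libraries (average log2 CPM at least 3, prior count 2), and marker genes as levels. Which of these are given was decided after their values were seen, and Pgrmc1 and Hebp1 are given as counts. The members and the lists were chosen with earlier results of these data known. Not every enzyme of the pathway is reported here.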

Additional observations from a re-analysis of the deposited data

Results flagged for a closer look

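In 7 of 50 tested genes of the 5 lists around heme synthesis, the siFEM1B effect in sgBACH1 cells differed from that in sgCTRL cells by the interaction test in edgeR, adjusted over all genes, 4 higher and 3 lower, beside 3.48% higher and 2.6% lower over all genes. No heme synthesis gene was called. The values are the log2 fold change in sgBACH1 cells minus that in sgCTRL cells, with 3 libraries in each of the 4 groups. For Suclg2, a succinyl-CoA ligase subunit, it was 0.36 ± 0.08 (adjusted p 0.0137). For Cat, the heme enzyme catalase, it was 0.35 ± 0.08 (adjusted p 0.0128). Each of these calls was lost without 1 library, Suclg2 without replicate 1 of sgBACH1 siFEM1B (adjusted p 0.0578) and Cat without replicate 3 of that group (adjusted p 0.0502). For Clpp, the partner protease of CLPX, it was 0.38 ± 0.10 (adjusted p 0.0351). For Nrf1, the regulator of Alas1 whose core motif was searched, it was -0.38 ± 0.11 (adjusted p 0.0351). For Sdhd, a subunit of the heme-containing succinate dehydrogenase, it was -0.36 ± 0.09 (adjusted p 0.0277). For Cox15, which makes heme A, it was 0.36 ± 0.11 (adjusted p 0.0497). For Nos2, the inducible nitric oxide synthase, it was -1.50 ± 0.40 (adjusted p 0.0306). The calls of these other 5 genes were lost in 7 to 12 of the alternatives each, most of them fits without 1 library.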

How the results depend on the processing

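With 1 library left out, 443 log2 fold changes of the members kept their direction and their side of the threshold. Of the rest, 24 lost a call, 8 gained one and 5 changed sign. In the other alternatives the numbers were 247, 10, 7 and 3. The counts of called genes are not part of these numbers. The calls of Cpox with siFEM1B in both genotypes, of Alas1 with siFEM1B in sgBACH1 cells, of Slc25a38 in both genotype comparisons and of Fech with siCTRL held in each alternative run. Those of Uros in sgCTRL cells and between genotypes with siFEM1B held wherever Uros was tested.

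With chromosome medians taken out, the sgBACH1 against sgCTRL values with siFEM1B changed sign for Alas1 (-0.00117), Urod (0.00432) and Fech (0.00660), all near 0. DESeq2 called 2 members with siFEM1B in sgCTRL cells in place of 4, and no filter on low counts called 5 members with siFEM1B in sgBACH1 cells in place of 3 and 1393 genes in the interaction in place of 807. With 1 library left out, the members called between genotypes with siFEM1B numbered 3 to 5, those in the interaction 0 to 1, and the genes in the interaction 297 to 1859. Values that were not called crossed 0 for Urod between genotypes with siFEM1B (-0.0563 to 0.0595) and with siFEM1B in sgCTRL cells (-0.00789 to 0.195) and for the Alad interaction (-0.0381 to 0.0683). The cause was not tested.

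Replicate numbers are shared by the groups, but same-numbered libraries did not deviate together (correlations of -0.115 to 0.0788), so the numbers were not taken as pairs. With a replicate block the genes called were 7031 and 6488 between genotypes (siFEM1B, siCTRL), 5298 and 5749 with siFEM1B (sgBACH1, sgCTRL) and 603 in the interaction. Under that block 2 member calls were lost, Fech between genotypes with siFEM1B (adjusted p 0.0624) and Alas1 with siFEM1B in sgCTRL cells (0.0501). Uros, at 53 to 175 counts per library, is the member whose precision depth limits most.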
